A study of Mus musculus with 2 samples.

Results

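Fabp4, Fabp5, Cd36, Gpihbp1, Lpl, Meox2, Tcf15, Pparg, Cav1 and Aqp1 form a fixed list of 10 genes for fatty acid uptake by capillary endothelium, taken from the 21951 genes and transgene sequences of the count matrix. Their UMIs (unique molecular identifiers, each standing for 1 captured RNA molecule) were followed in heart and liver endothelial cells (ECs) of mouse pups. In each of the 3 genotypes 9 of them were higher in heart than in liver, and Aqp1 was higher in liver, though the direction of Fabp5 in iSuRe-HadCre pups turned under 3 other choices of cells. The difference was largest for the lipase gene Lpl and the homeobox gene Meox2, and smallest for Gpihbp1 and, in iSuRe-HadCre pups, for Fabp5.

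All cells came from 1 pooled 10x Genomics library, in which antibody hashtags carry the 6 combinations of tissue and genotype. The C57BL/6 pups received 40 mg/kg of 4-hydroxytamoxifen on postnatal day 3 and were collected 3 days later, at an age given as postnatal day 6 to 7. The iSuRe groups carried Cdh5-CreERT2, an inducible Cre driven by the promoter of the endothelial cadherin gene, together with a reporter allele of membrane Tomato: iSuRe-Cre, which keeps expressing Cre with the reporter, or iSuRe-HadCre, in which Cre is expressed for a short time only, while of the control group the labels give no alleles. A floxed Notch1 in the iSuRe groups was taken from a drawing in the study and is not in the labels, the number of pups per group was not found, and cells were sorted as CD31+ and MbTomato+.

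Fatty acids reach muscle from the blood either bound to albumin or in lipoprotein particles, and capillary endothelium handles both. Lipoprotein lipase, made mainly by muscle and fat cells, is carried to the capillary lumen by GPIHBP1, released fatty acids are taken up with the help of CD36, and FABP4 and FABP5 bind them inside the cell. MEOX2 and TCF15 form a transcription factor pair described in heart endothelium, and PPARG is a fatty acid-sensing nuclear receptor. Liver sinusoids are lined by fenestrated ECs with scavenger receptors such as STAB2, and lipoproteins pass through the fenestrae.

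ECs were barcodes with 2000 to 75000 gene UMIs, more than 500 genes, mitochondrial and haemoglobin shares below 5% and log-normalized Cdh5 above 0.9. Of 7704 such ECs, 1988 carried a single hashtag and were used, at 25 or more hashtag UMIs (140 for the iSuRe-Cre liver hashtag). The heart groups held 254 control, 435 iSuRe-Cre and 311 iSuRe-HadCre cells, and the liver groups held 54, 858 and 76. A cell of another group could thus hold UMIs of the iSuRe-Cre liver hashtag, as long as they were below 140. Median counts of the own hashtag were 74.5, 62 and 57 UMIs in the heart groups. Were the hashtag to be at least 3 times the next, 149, 213 and 137 heart cells would remain. The liver groups would then hold 36, 858 and 44 cells. The study also required log-normalized WPRE, a reporter sequence, above 0.5, and that limit was not applied here. With it, the heart groups would hold 228, 145 and 292 cells and the liver groups 40, 379 and 66, in the same order. Median depth lay between 7322 and 9100 UMIs per cell in 5 groups and was 16379 in iSuRe-Cre heart, and the groups summed to between 624048 UMIs (control liver) and 9341120 UMIs (iSuRe-Cre liver). Levels are given as CPM, a gene's UMIs scaled to a group sum of 1000000, with exact 95% Poisson intervals that cover counting error only. Where 3 values of a tissue are listed together, their order is control, iSuRe-Cre, iSuRe-HadCre. Every group is a single hashtagged sample, and as its level is a sum over cells, a change in the mix of cells and a change in the level per cell cannot be told apart in it.

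The labels were checked first. Notch1 was at 138 CPM in control heart against 12.6 and 23.2 in the iSuRe hearts, and at 160.2 CPM in control liver against 21.4 and 30.7, so the targeted gene was lower in all 4 iSuRe groups. The 10 endothelial markers summed to between 4757 and 5850 CPM in the 6 groups. They include Cdh5, by which all cells were selected, so this sum cannot check the labels. Stab2, a defining sinusoidal gene, was at 1446 CPM in iSuRe-Cre liver and 387 CPM in iSuRe-HadCre liver but at 30.4 CPM in the group labelled control liver, below the 223 CPM of free RNA (24194 barcodes of 10 to 100 UMIs). Control liver was thus far below the other liver groups on this marker, though above the heart groups (9.90, 2.17 and 5.80 CPM). Its 10 sinusoidal genes, with Dnase1l3 at 0, summed to 586 CPM. This was below 1344 and 5165 CPM in the other liver groups but above every heart group (at most 138 CPM). Other genes of that list went with the label, among them Gata4, at 139 CPM in control liver against 132 and 150.4 CPM in the other livers and 6.27 to 19.1 CPM in heart, and Stab1, Lyve1, Maf and Oit3 also lay above every heart group. Its large-vessel genes summed to 1856 CPM, the highest of the 6 groups. The reporter sequence WPRE was at 562 CPM in control heart and 396 CPM in control liver, above its 63.5 and 105 CPM in the iSuRe-Cre groups. Hepatocyte genes summed to 648 CPM in iSuRe-Cre heart against 112 and 85.4 CPM in the other heart groups, and to 561 CPM in iSuRe-Cre liver against 101 and 73.2 CPM in the other liver groups. The 6 adipocyte genes summed to at most 0.33 CPM in any group.

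The RefSeq promoter table (build GRCm38.p6) held 5 of the 10 genes: Cd36, Meox2, Pparg, Cav1 and Aqp1. The 250 bases before the listed start are shown for 3 genes that were higher in heart and for Aqp1, the gene of the opposite direction, with every E-box (CANNTG, the letters read by basic helix-loop-helix factors, the family of Tcf15) in capitals. The windows lie at chr12:37108290-37108539 (plus strand) for Meox2, chr6:17306085-17306334 (plus strand) for Cav1, chr5:17835897-17836146 (minus strand) for Cd36 and chr6:55336049-55336298 (plus strand) for Aqp1. The Cd36 window lies inside the annotated gene (chr5:17781690-17888801), so its listed start is an internal one. Which start the ECs use was not tested.
Meox2: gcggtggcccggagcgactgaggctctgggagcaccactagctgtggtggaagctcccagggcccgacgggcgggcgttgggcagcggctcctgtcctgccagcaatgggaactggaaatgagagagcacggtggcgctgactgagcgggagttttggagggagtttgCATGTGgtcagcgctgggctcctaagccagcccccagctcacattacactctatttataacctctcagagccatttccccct
Cav1: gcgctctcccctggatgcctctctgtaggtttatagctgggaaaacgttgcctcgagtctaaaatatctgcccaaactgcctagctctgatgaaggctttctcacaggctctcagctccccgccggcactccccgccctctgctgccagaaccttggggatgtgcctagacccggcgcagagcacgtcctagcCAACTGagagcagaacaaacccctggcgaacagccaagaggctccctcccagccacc
Cd36: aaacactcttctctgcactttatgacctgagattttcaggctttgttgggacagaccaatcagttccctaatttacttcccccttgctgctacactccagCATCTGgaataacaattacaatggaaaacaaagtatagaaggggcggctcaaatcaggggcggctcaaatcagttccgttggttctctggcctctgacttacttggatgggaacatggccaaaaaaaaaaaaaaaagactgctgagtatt
Aqp1: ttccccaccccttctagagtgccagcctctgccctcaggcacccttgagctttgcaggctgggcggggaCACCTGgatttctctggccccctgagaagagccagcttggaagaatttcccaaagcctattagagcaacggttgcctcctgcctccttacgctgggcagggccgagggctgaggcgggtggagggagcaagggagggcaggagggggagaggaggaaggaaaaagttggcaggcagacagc
Each of these 4 windows held 1 E-box, with its first base 82 bases before the start in Meox2, 57 in Cav1, 150 in Cd36 and 181 in Aqp1, and the Pparg window held none. On both strands, 66% of 27025 mouse promoter windows of this length hold at least 1. The letters TATAAA of a TATA box were matched in Meox2 and Cav1 (13% of all windows, either strand). Both matches were on the opposite strand, printed as tttata, 29 bases before the start in Meox2 and 221 in Cav1. The nuclear receptor half-site AGGTCA was matched in Pparg and, on the opposite strand, in Cd36 (13.8% of all windows, either strand).

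Of the fatty acid binding proteins, Fabp4 had the most UMIs. It was at 18100.1, 13495 and 9772 CPM in heart. In liver it was at 3703, 3488 and 4586 CPM. All heart groups lay above all liver groups, and the liver groups lay above the 2753 CPM of free RNA. The heart to liver ratio was 4.89 (4.69 to 5.10), 3.87 (3.82 to 3.92) and 2.13 (2.05 to 2.21), with 95% intervals in brackets. Over the 3 genotypes the log2 difference was 1.88 ± 0.31 (SE; edgeR quasi-likelihood adjusted p = 0.0202), and the call was lost without the control groups (adjusted p = 0.0639) and without the iSuRe-Cre groups (adjusted p = 0.0824).

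Fabp5, the second binding protein, was at 1913, 2811 and 896 CPM in heart. The liver groups were at 752, 767 and 792 CPM. The groups did not overlap, but iSuRe-HadCre heart lay only just above the liver groups, and like all 3 of them it lay below free RNA (1272 CPM). Its ratios were 2.54 (2.32 to 2.80), 3.66 (3.57 to 3.76) and 1.13 (1.03 to 1.24). The iSuRe-HadCre log2 ratio was below 0 with a hashtag minimum of 10 (-0.21), with no Cdh5 limit (-0.23) and without cells of the sinusoidal, endocardial and arterial marker ranges (-0.0633). The fitted log2 difference of 1.24 ± 0.33 did not pass the test (edgeR adjusted p = 0.0905), but passed without the iSuRe-HadCre groups (1.77, adjusted p = 0.0498). Fabp5 has 1 pseudogene named after it in the annotation, with which reads could have been shared.

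**Figure D1:**
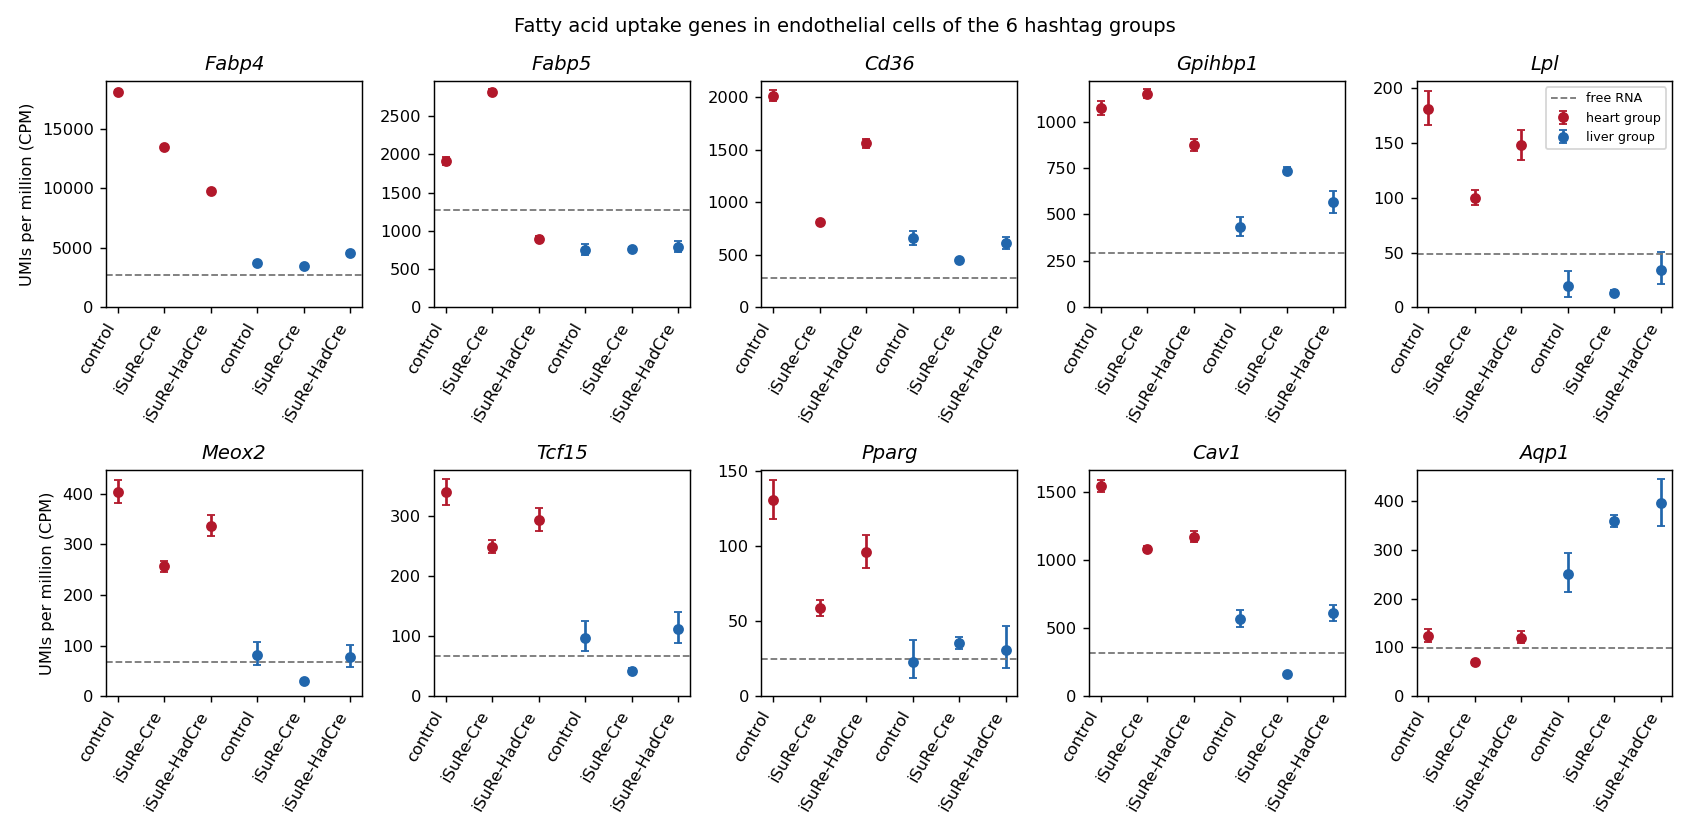
Levels of the 10 genes in CPM (vertical axes, each starting at 0) in the heart groups (red) and liver groups (blue) of the 3 genotypes, with exact 95% Poisson intervals and free RNA as a dashed line. All red points lie above all blue points for 9 genes, from Fabp4 (lowest heart group 9772, highest liver group 4586) to Fabp5 (896 and 792), and all blue points lie above the red ones for Aqp1.

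Cd36, the fatty acid translocase of the cell surface, was at 2013, 809.8 and 1560.1 CPM in heart. In liver the levels were 657, 448 and 611 CPM. The groups did not overlap, with iSuRe-Cre heart the lowest heart group and control liver the highest liver group. The ratios were 3.06 (2.77 to 3.39), 1.81 (1.74 to 1.88) and 2.56 (2.31 to 2.83), and the log2 difference of 1.36 ± 0.19 passed the test (edgeR adjusted p = 0.0123). Without the iSuRe-HadCre groups the difference was 1.38 with adjusted p = 0.0939.

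Gpihbp1, which binds lipoprotein lipase and carries it across the endothelium, was at 1074, 1150.5 and 873 CPM in heart. It was at 433, 736 and 565 CPM in liver. This was the smallest difference among the genes that passed: log2 0.95 ± 0.20 (edgeR adjusted p = 0.0427), with ratios of 2.48 (2.19 to 2.82), 1.56 (1.52 to 1.61) and 1.54 (1.39 to 1.72). The call was lost without the control groups (adjusted p = 0.169) and without the iSuRe-HadCre groups (adjusted p = 0.114).

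Lpl, which encodes the lipase itself, gave the largest log2 difference of the 10 genes. It was at 181, 100.1 and 148 CPM in heart. In liver it was at 19.2 (95% interval 9.94 to 33.6; 12 UMIs), 13.3 (11 to 15.8) and 33.7 CPM (21.3 to 50.5; 23 UMIs). Free RNA held 48.8 CPM, above all 3 liver groups and below all heart groups. The ratio was 9.42 (5.35 to 18.3), 7.54 (6.24 to 9.18) and 4.39 (2.89 to 7.0), and the fitted log2 difference was 2.85 ± 0.24 (edgeR adjusted p = 0.00264). Cardiomyocyte marker genes summed to 63.5 to 102 CPM in the heart groups and 28.8 to 54.2 CPM in the liver groups. The part of RNA from muscle cells in the Lpl levels was not tested.

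The transcription factor genes came next. Meox2 was at 404, 257 and 337 CPM in heart. In liver it was at 81.7, 29.0 and 77.6 CPM, around or below the 67.2 CPM of free RNA. Its ratios were 4.94 (3.74 to 6.68), 8.85 (7.79 to 10.1) and 4.34 (3.29 to 5.83), and the log2 difference was 2.66 ± 0.24 (edgeR adjusted p = 0.0031). Tcf15, its partner, was at 340.3, 249.7 and 294 CPM in the heart groups. It was at 97.7, 42.6 and 113 CPM in the liver groups. The iSuRe-Cre liver group was the lowest of the 6 for both genes and lay below free RNA for both. Tcf15 had ratios of 3.48 (2.69 to 4.58), 5.86 (5.26 to 6.54) and 2.61 (2.07 to 3.34) and a log2 difference of 2.04 ± 0.25 (edgeR adjusted p = 0.00738). With each genotype left out in turn, Lpl, Meox2 and Tcf15 passed at adjusted p of at most 0.0448.

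Pparg was at 131, 58.4 and 95.7 CPM in heart. It was at 22.4 (95% interval 12.3 to 37.6; 14 UMIs), 35.2 and 30.7 CPM (19.0 to 47.0; 21 UMIs) in liver. Free RNA was at 24.9 CPM, within the intervals of control and iSuRe-HadCre liver. The ratios were 5.83 (3.43 to 10.8), 1.66 (1.44 to 1.91) and 3.11 (2.00 to 5.10), so the separation was narrowest in iSuRe-Cre pups. The log2 difference of 1.55 ± 0.32 passed (edgeR adjusted p = 0.0403) and was lost without the iSuRe-HadCre groups (adjusted p = 0.197).

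Cav1, which encodes the coat protein of caveolae, was at 1548, 1084 and 1173 CPM in heart. Its liver levels were 569, 164 and 612 CPM. The iSuRe-Cre liver group, the one with the highest sinusoidal marker sum, lay below free RNA (314 CPM) and below both other liver groups. The ratios were 2.72 (2.44 to 3.04), 6.62 (6.27 to 7.0) and 1.92 (1.73 to 2.13), the widest in iSuRe-Cre pups. The log2 difference was 1.80 ± 0.34 (edgeR adjusted p = 0.0316), and 2.25 without the iSuRe-HadCre groups (adjusted p = 0.0697).

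Aqp1, a water channel of endothelium and red cells, went the other way. It was at 124, 69.0 and 120.2 CPM in heart. It was at 252, 360.0 and 395 CPM in liver. Every heart group lay below every liver group, and free RNA was at 98.6 CPM. The heart to liver ratios were 0.493 (0.408 to 0.598), 0.192 (0.175 to 0.209) and 0.304 (0.259 to 0.357), and the log2 difference of -1.64 ± 0.26 passed (edgeR adjusted p = 0.0173), though not without the iSuRe-HadCre groups (-1.58, adjusted p = 0.143). The 8 erythroid genes also summed to more in liver (2011 to 3958 CPM) than in heart (1167 to 1914 CPM). Barcodes over the haemoglobin limit and without Cdh5 (3918 erythroid barcodes) held 31.8 CPM of Aqp1, below every EC group.

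**Figure D2:**
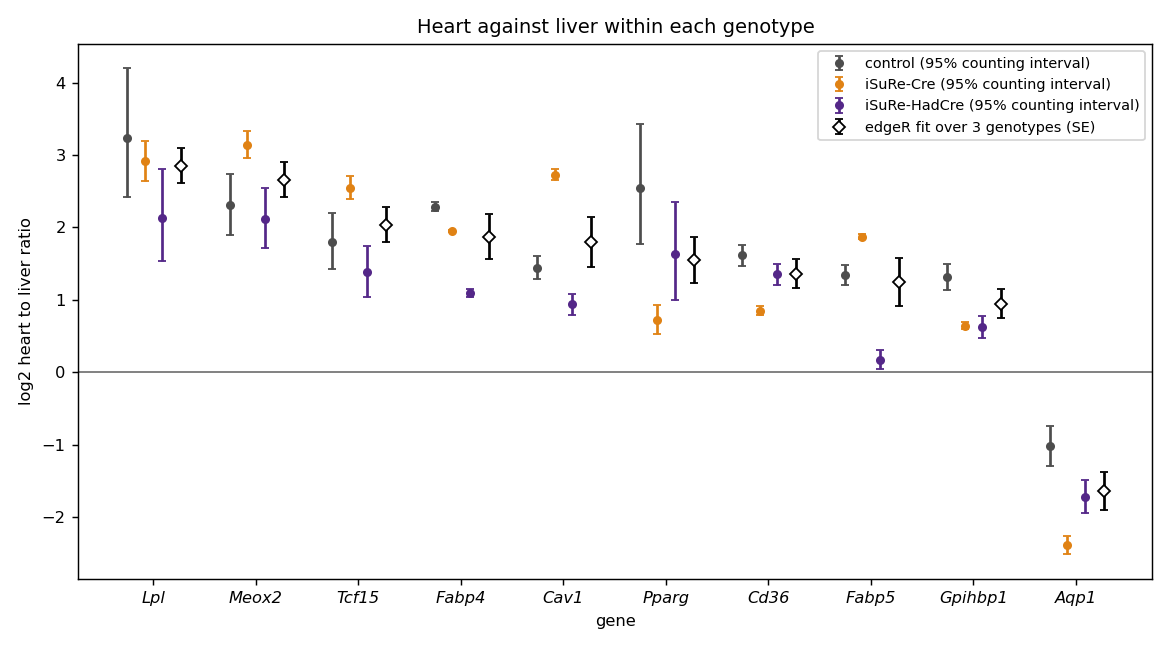
log2 of the heart to liver ratio (vertical axis) for the 10 genes (horizontal axis) within each of the 3 genotypes, with 95% counting intervals, beside the edgeR estimate over the genotypes with its SE. Every interval lies above 0 for 9 genes and below 0 for Aqp1, with edgeR estimates from -1.64 for Aqp1 to 2.85 for Lpl.

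In all, 8 of the 10 genes were called higher in heart and 1 higher in liver at an adjusted p below 0.05 (edgeR, genotype as a block, 3 heart against 3 liver sums). Over the 11503 genes tested, 2.23% were called higher in heart and 2.83% higher in liver, and all 10 genes had passed the filter on low sums. As the 10 genes were chosen with earlier results of these data known, these counts are a description only. The count over the 10 genes was 6 and 1 without the control groups, 7 and 1 without the iSuRe-Cre groups and 5 and 0 without the iSuRe-HadCre groups. It was 6 and 1 when the liver groups were limited to cells in the sinusoidal marker range, and 4 and 1 without cells of the 3 vascular marker ranges, choices made after the values were seen. The genotypes served as blocks and are not replicates, so p-values measure how evenly the tissue difference held over 3 genotypes, and an exact permutation of 3 against 3 sums could not go below p = 0.1. All 3 heart groups lay above all 3 liver groups for 9 members, against 6.2% of genes tested, and the reverse held for 1, against 12.3%. The median log2 ratio over the 10 genes was 1.71, 1.91 and 1.22 by genotype, while the median over all genes tested was -0.14, -0.12 and -0.01, so relative to all genes the heart ratios are slightly larger and that of Aqp1 slightly nearer to 1. The 10 genes took 2.58%, 2.01% and 1.53% of all UMIs in the heart groups, and between 0.608% and 0.782% in the liver groups. Most of this share in heart was Fabp4, without which it was 0.55% to 0.773%.

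The share of cells with at least 1 UMI, taken from the same UMIs as the levels and so no separate evidence, had the same direction. After thinning each cell to 2000 UMIs, the heart share was above the liver share in 27 of 30 pairs of gene and genotype, and the other 3 were those of Aqp1. That count was not made over all genes tested, so it is a description only. Meox2 was detected in 32.7% to 44.9% of heart cells after thinning (69.1% to 77.6% before) and in 4.30% to 10.7% of liver cells (12.5% to 24.1% before). Erythroid barcodes, which should lack it, gave 7.60% after thinning at a median of 3412 UMIs (13.5% before), so the share in iSuRe-Cre liver (4.30%) was at background. Lpl was detected in 17.7% to 28.2% of heart and 2.32% to 5.09% of liver cells after thinning (49.8% to 63.4% and 9.44% to 16.7% before), beside 4.32% of erythroid barcodes. For Fabp4 the thinned share was 76.6% to 90.1% in liver cells and 81.3% in erythroid barcodes (90.7% to 97.8% and 92.4% before), although the level in those barcodes was 1331 CPM. For Fabp5 the thinned erythroid share of 73.8% was above all 3 liver groups (55.6% to 63.2%, with 82.9% to 90.3% before). It was also above iSuRe-HadCre heart (63.5%, with 84.6% before). Fabp5 was at 827 CPM in those barcodes. Whether they lack Fabp5 was not tested, so these shares cannot be called background or signal. Aqp1 was detected in 12.1% to 20.4% of heart and 38.0% to 46.0% of liver cells after thinning (40.5% to 50.8% and 74.1% to 78.6% before), beside 10.6% of erythroid barcodes.

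Within a group, cells differed widely. In control heart, Fabp4 ranged from 5848 CPM at the 10th to 36109.5 CPM at the 90th percentile of cells, with a median of 19903. In control liver the median cell had 2567 CPM and the 90th percentile was 13034 CPM, so the upper liver cells reached into the heart range. The median Cav1 value was 1775 CPM over control heart cells and 0 over iSuRe-Cre liver cells, whose 90th percentile was 472 CPM.

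Cells were then split by the UMIs of fixed marker lists, as ranges of a sum rather than cell types. In iSuRe-Cre liver, 597 of 858 cells (69.6%) lay in the sinusoidal range, 187 in the arterial and large-vessel range, 3 in the endocardial range and 71 outside all of them. The sinusoidal cells were higher than the 71 cells in Aqp1 (425 against 96.4 CPM, ratio 4.41, 3.27 to 6.11), Cd36 (ratio 1.59, 1.34 to 1.90) and Gpihbp1 (ratio 1.29, 1.15 to 1.45). They were lower in Tcf15 (29.6 against 134 CPM, ratio 0.220, 0.164 to 0.299), Cav1 (111 against 444 CPM, ratio 0.249, 0.213 to 0.293), Lpl (ratio 0.333, 0.189 to 0.624), Meox2 (ratio 0.525, 0.339 to 0.850), Fabp5 (ratio 0.648, 0.591 to 0.712) and Fabp4 (ratio 0.728, 0.696 to 0.762). The interval of Pparg held 1 (ratio 1.85, 0.99 to 3.90). These are cells of 1 sample, so the intervals carry no spread between animals, and the sinusoidal cells were deeper (a median of 8761 against 5750.0 UMIs per cell). The order was not particular to a contrast with sinusoidal cells. The 187 arterial-range cells lay between those sets for Aqp1 (223 CPM), Cav1 (263), Tcf15 (62.6), Fabp4 (3682), Fabp5 (807) and Cd36 (350). So they did for Meox2 (29.5 CPM, sinusoidal 27.1) and Lpl (15.4 CPM, sinusoidal 11.2). They lay below both sets for Gpihbp1 (359 CPM) and Pparg (19.8 CPM).

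**Figure D3:**
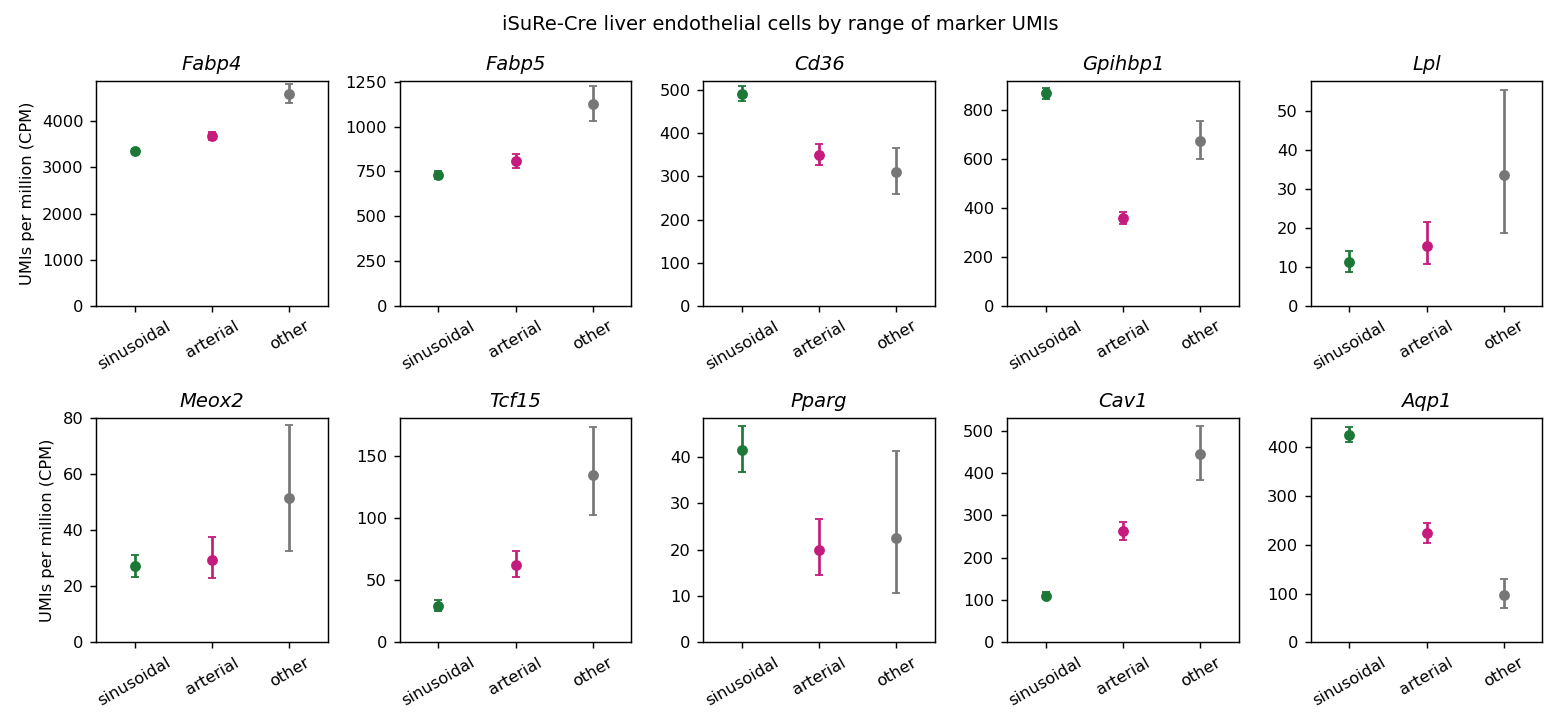
Levels of the 10 genes in CPM in iSuRe-Cre liver ECs in the sinusoidal range (597 cells), the arterial range (187 cells) and outside all marker ranges (71 cells), with exact 95% Poisson intervals. Aqp1 is at 425 CPM in the sinusoidal range and 96.4 outside the ranges, while Cav1 has the opposite order with 111 and 444 CPM.

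The other liver groups held few sinusoidal cells. In iSuRe-HadCre liver 17 of 76 cells were in that range, and there too Aqp1 was higher than in the 22 cells outside the ranges (843 against 253 CPM, ratio 3.33, 2.25 to 5.06) and Cav1 lower (119 against 1189.7 CPM, ratio 0.1, 0.0548 to 0.170). Cd36 (ratio 0.839, 0.650 to 1.08) and Gpihbp1 (ratio 0.570, 0.429 to 0.753) did not show the order they had in iSuRe-Cre liver. In the group labelled control liver, 32 of 54 cells lay in the arterial range and 10 in the sinusoidal range. In iSuRe-Cre heart, 62 cells lay in the sinusoidal range. Against heart cells outside the ranges, their Aqp1 was at 55.5 against 53.5 CPM and their Cav1 at 892 against 1320 CPM. Among heart cells, those outside the ranges had more Fabp4 than those in the arterial range in each genotype (21023 against 17113, 16066 against 11850.3 and 12236 against 8782 CPM), and more Gpihbp1 (1373 against 915, 1442 against 941 and 1228 against 695 CPM).

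Across single heart cells, Fabp4 went most closely with Gpihbp1, Cd36 and Cav1. The Pearson correlation of log-normalized values with Fabp4 was 0.67 for Gpihbp1, 0.66 for Cd36 and 0.65 for Cav1, as means of the 3 heart groups (254, 435 and 311 cells), and 0.51 for Tcf15. It was between 0.27 and 0.34 for Meox2, Lpl and Pparg, 0.12 for Fabp5 and 0.06 for Aqp1. Fabp5 and Fabp4 correlated at 0.32 in control but at -0.12 in iSuRe-Cre heart. Cells share their library and differ in depth, and in sparse counts such as those of Lpl, Pparg and Aqp1 a weak correlation is no finding. By the same measure the genes nearest to Fabp4 were Gpihbp1, Cd36, Cav1, Sparc (0.64) and Sparcl1 (0.63), the last ones being genes of secreted matrix proteins.

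**Figure D4:**
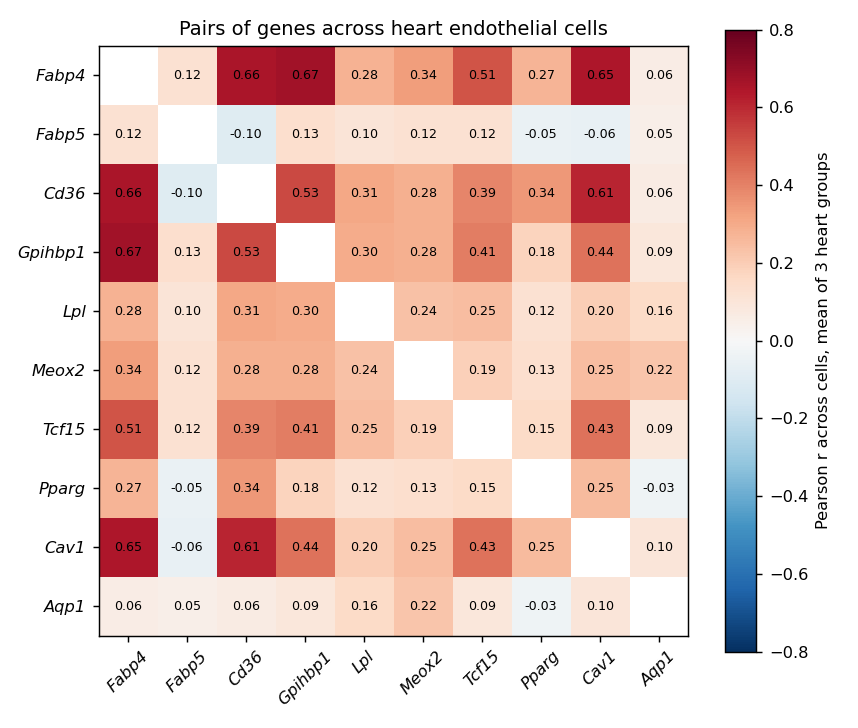
Pearson correlation (no unit) of log-normalized values across single heart ECs for each pair of the 10 genes (both axes), given as the mean of the 3 heart groups. The pairs among Fabp4, Cd36, Gpihbp1 and Cav1 lie between 0.44 and 0.67, and those of Aqp1 with the other genes between -0.03 and 0.22.

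Heart cells were also split by detection of the Meox2 and Tcf15 pair. Of the 254 control heart cells, 169, 70 and 15 had UMIs of both genes, of 1 of them and of neither. Fabp4 was at 19521, 16425 and 3430.3 CPM in these sets. In iSuRe-Cre heart (290, 94 and 51 cells) the levels were 15096, 11251 and 3844 CPM, and in iSuRe-HadCre heart (174, 101 and 36 cells) 11095, 8303 and 4604 CPM. Fabp4 thus had the same order in all 3 heart groups. Cd36 was at 2097, 1964 and 951 CPM in control and 881, 818 and 185 CPM in iSuRe-Cre heart. The sets were chosen by detection, and cells with both genes were deeper than those with neither: their median UMIs were 10464 against 9114 in control, 20144 against 10096 in iSuRe-Cre and 7956 against 6264 in iSuRe-HadCre heart. Cells with 1 of the genes had medians of 6709, 12968 and 6514 UMIs, in control below the cells with neither. The part of depth in this order was not tested. In each heart group the cells with neither also had less Cdh5 than those with both. Cdh5 was at 751 against 1309.9 CPM in control, 721 against 1011 CPM in iSuRe-Cre and 1014 against 1277 CPM in iSuRe-HadCre heart, all in cells selected by this gene. In iSuRe-Cre liver only 39 of 858 cells had both genes, and their Fabp4 was at 7154 CPM against 3059.9 CPM in the 607 cells with neither.

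The iSuRe groups were set against control within each tissue. Each ratio compares a pair of hashtagged samples and was not tested, and both comparisons share the control group. How many of all genes tested had an interval wholly above or below 1 was not counted. Counts of such intervals among the 10 genes are therefore a description only. In iSuRe-Cre heart, 8 of the 10 ratios had an interval below 1, from Cd36 (0.402, 0.388 to 0.416) and Pparg (0.447, 0.391 to 0.512) to Fabp4 (0.746, 0.738 to 0.753), while Fabp5 (1.47, 1.43 to 1.51) and Gpihbp1 (1.07, 1.03 to 1.11) lay above. The general endothelial genes Cdh5 (0.745, 0.717 to 0.774) and Pecam1 (0.694, 0.661 to 0.728) were also below control there, at ratios like those of Fabp4, Tcf15 (0.734, 0.681 to 0.791) and Cav1 (0.700, 0.676 to 0.726). As cells were selected by Cdh5, its ratios hold only for cells above that limit. At a fold of 1.5 or more, 5 of the genes were lower and 0 higher, against 11% and 9.56% of the genes tested. In iSuRe-HadCre heart, 9 ratios had an interval below 1, lowest for Fabp5 (0.468, 0.448 to 0.490) and Fabp4 (0.540, 0.532 to 0.548), and that of Aqp1 held 1 (0.969, 0.837 to 1.12). There 2 genes were at least 1.5-fold lower and 0 higher, against 3.85% and 15.3% of the genes tested. In that group Cdh5 (0.955, 0.914 to 0.999) and Pecam1 (1.02, 0.964 to 1.08) were close to control.

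**Figure D5:**
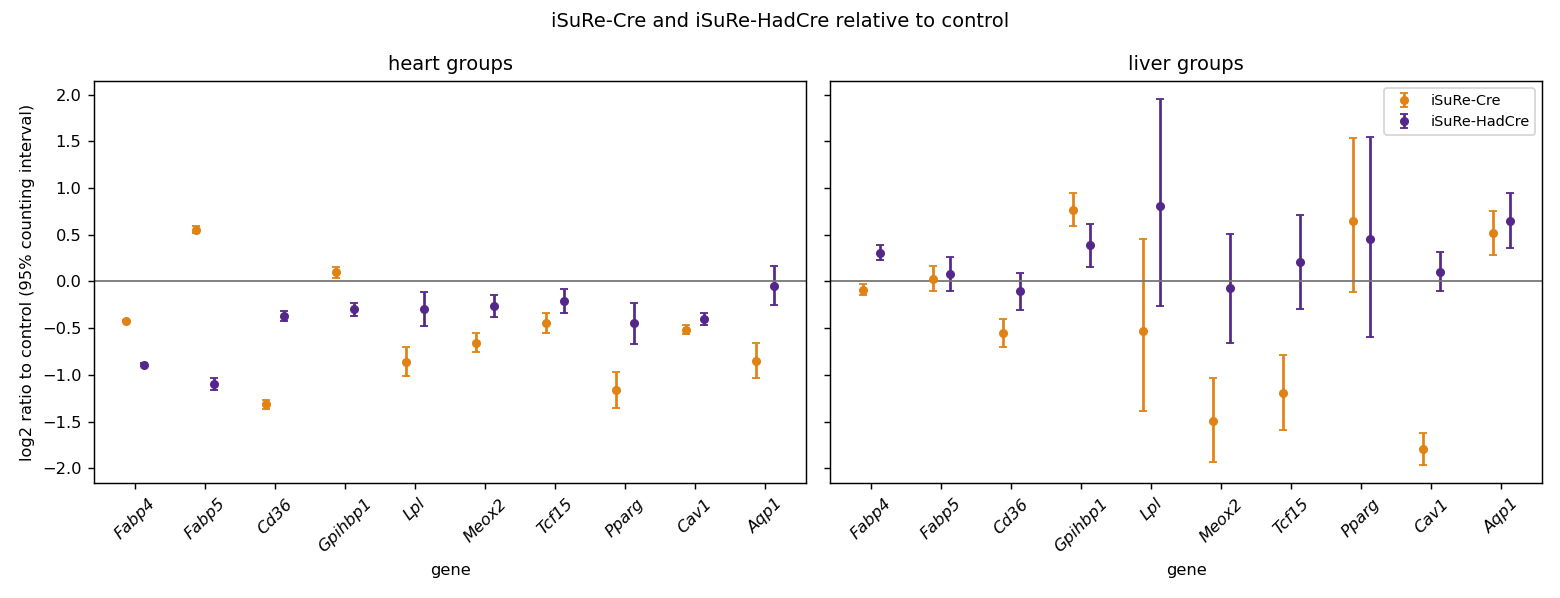
log2 ratio to control (vertical axis) of the 10 genes (horizontal axis) in heart and liver for iSuRe-Cre and iSuRe-HadCre pups, with 95% counting intervals. In heart most points lie below 0, lowest for Cd36 in iSuRe-Cre (a ratio of 0.402) and Fabp5 in iSuRe-HadCre (0.468), while in liver Cav1 in iSuRe-Cre is lowest (0.288) and both Aqp1 points lie above 0.

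In iSuRe-Cre liver the lowest ratios to control liver were those of Cav1 (0.288, 0.256 to 0.324), Meox2 (0.355, 0.262 to 0.489) and Tcf15 (0.436, 0.332 to 0.581), and those of Gpihbp1 (1.70, 1.51 to 1.93) and Aqp1 (1.43, 1.22 to 1.69) lay above 1. Cdh5 (0.685, 0.633 to 0.743) and Pecam1 (0.556, 0.509 to 0.609) lay below 1 in this group too. Here 3 genes were at least 1.5-fold lower and 2, Pparg (1.57, 0.922 to 2.90) and Gpihbp1, at least 1.5-fold higher, against 18.9% and 14.3% of the genes tested. In iSuRe-HadCre liver 2 genes, Lpl (1.75, 0.836 to 3.86) and Aqp1 (1.57, 1.29 to 1.93), were at least 1.5-fold higher and 0 lower, against 16% and 16.6% of the genes tested. The sinusoidal marker sum differed between these same liver groups (586, 5165 and 1344 CPM), and its part in the ratios was not tested. Between the iSuRe alleles, the ratio of iSuRe-HadCre to iSuRe-Cre heart was 1.93 (1.86 to 2.00) for Cd36 and 0.319 (0.306 to 0.331) for Fabp5.

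Other genes of the pathway were taken from fixed lists. These lists were chosen with earlier results of these data known, so the counts called in them are a description only. Of 67 genes tested over all lists, edgeR called 15 higher in heart and 0 higher in liver, beside 2.23% and 2.83% of all genes tested. At an unadjusted p below 0.05 there were 21 and 4, beside 2078 of the 11503 genes in either direction, and DESeq2 (Wald test) called 15 and 0. Of the caveolar genes, 4 of 6 tested were called higher in heart: Cavin2 (log2 0.69 ± 0.14, edgeR adjusted p = 0.0421), Ehd2 (1.39 ± 0.30, adjusted p = 0.0495), Cavin1 (1.06 ± 0.20, adjusted p = 0.0308) and Cav2 (1.32 ± 0.17, adjusted p = 0.00938). The list's median log2 difference was 0.88, beside 0.00 over all genes tested. Cavin3 (0.18) and Pacsin2 (0.32) did not pass.

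Of 9 tested genes for lipoprotein handling, 1 was called: Angptl4, the inhibitor of lipoprotein lipase (log2 2.01 ± 0.23, edgeR adjusted p = 0.00597; list median -0.20). It was at 108, 91.8 and 54.1 CPM in heart and at 22.4, 22.5 and 22.0 CPM in liver. Of 9 tested genes for fatty acid transport and activation, Acsl1, an acyl-CoA synthetase, was called (log2 1.22 ± 0.23, edgeR adjusted p = 0.0302; list median 0.20), and 8 were not. DESeq2 called 0 genes of that list, Acsl1 included. In the list of lipid storage and release, Mgll (1.76 ± 0.19, edgeR adjusted p = 0.00551) and Lipe (1.44 ± 0.24, adjusted p = 0.02), the genes of monoglyceride lipase and hormone-sensitive lipase, were called among 7 tested (list median 0.38). Of 12 fatty acid oxidation genes edgeR and DESeq2 both called 0, with 1 at an unadjusted edgeR p below 0.05 (list median 0.16), the most abundant being Hadha (0.13 ± 0.14, adjusted p = 0.713) and Acadl (0.36 ± 0.19, adjusted p = 0.384).

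Meox1, the paralogue of Meox2, was called (log2 2.47 ± 0.29, edgeR adjusted p = 0.00657) among 8 tested nuclear receptor and partner genes (list median 0.06). Of 2 aquaporins tested beside Aqp1, Aqp7, a channel for glycerol and water, was called in the direction opposite to Aqp1 (log2 2.22 ± 0.40, edgeR adjusted p = 0.0269). Its levels were 81.5, 15.9 and 38.4 CPM in heart and 11.2, 2.57 and 22.0 CPM in liver, so that iSuRe-Cre heart lay below iSuRe-HadCre liver. Of 9 genes of vascular signalling, Apln (1.53 ± 0.32, edgeR adjusted p = 0.0413) and its receptor Aplnr (0.73 ± 0.15, adjusted p = 0.0394) were called (list median -0.09). Of 5 other heart capillary genes, Rgcc (1.91 ± 0.30, edgeR adjusted p = 0.0156), Btnl9 (2.13 ± 0.16, adjusted p = 0.00213) and Car4 (2.54 ± 0.23, adjusted p = 0.00315) were called (list median 1.98).

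Across the 6 groups, the genes closest to the mean standardized profile of the 10 genes were Phactr4 (r = 0.99), Uaca, Syf2, Rras and Mgat4a (0.987), of 9742 genes with at least 200 UMIs. With 6 sums of 1 library such values are common, and 129 genes exceeded 0.9. Of the members, Lpl (0.989) and Fabp4 (0.984) were closest to the mean profile, and Fabp5 (0.742) was the farthest of the 9 heart genes. Each member is itself part of that mean, which raises its value. Mgat4a was at 94.1, 69.5 and 70.9 CPM in heart and 24.0, 14.8 and 35.1 CPM in liver.

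In the annotation of GRCm38, Fabp4 lies at chr3:10204088-10208576 and Fabp5 at chr3:10012548-10016607, on opposite strands. The other members are Cd36 (chr5:17781690-17888801), Gpihbp1 (chr15:75596628-75599481), Lpl (chr8:68880491-68907448), Meox2 (chr12:37108540-37179534), Tcf15 (chr2:152143561-152149097), Pparg (chr6:115360951-115490399), Cav1 (chr6:17306335-17341452) and Aqp1 (chr6:55336432-55348555). Meox2 overlaps Gm48617 on its own strand, and Pparg and Cav1 overlap Gm44079 and Gm15581 on the opposite strand, so reads in the shared parts could belong to either gene, the strand setting of the counting not being given in the sources used here. All 10 are annotated as protein-coding, and their UMIs count whole genes rather than isoforms.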

How the data were processed

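Reads had been aligned by the authors to GRCm38 with Ensembl 98 genes and added transgene sequences, using Cell Ranger (7.1.0 in the submitters' notes). They deposited raw UMI counts per gene, hashtag and barcode of 1 pooled library, unfiltered (2755147 barcodes) and not normalized. Hashtag numbers in the labels give the 6 groups, and 7 further hashtag and multiplexing features were not used.

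From the counts, barcodes were selected as described, and 131 ECs with more than 1 hashtag over its minimum were left out as doublets. No other doublet caller was run. UMIs were summed per group. Heart against liver was tested with edgeR 4.0.16 (quasi-likelihood, TMM, genotype as a block, filterByExpr with a minimum count of 10, 2 residual degrees of freedom) and Benjamini-Hochberg adjustment over 11503 genes, in R 4.3.3, and the script was tested on simulated data. Intervals are exact (scipy 1.17.1): Poisson for sums, conditional for ratios. Shares after thinning are the mean over all draws of 2000 UMIs. Log-normalized values are ln(1 + 10000 × share). DESeq2 1.42.0, HTODemux of Seurat 5.3.0, other filters and leaving out each genotype were alternatives.

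The members, the gene lists and the tests were chosen with earlier results of these data known. Named genes are the 10 members, genes that check the labels, up to 4 called genes of each fixed list (otherwise its most abundant 2) and the 5 nearest genes by pattern, while Cavin3, Pacsin2 and the motifs printed were picked after their values were seen. In all, 8 motifs were searched.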

Additional observations from a re-analysis of the deposited data

Results flagged for a closer look

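For 3 genes the ratio to control had its interval on opposite sides of 1 in heart and liver, and the difference between the tissues was not tested, since each group is a single sample. Fabp4 in iSuRe-HadCre pups was at 0.540 (0.532 to 0.548) of control in heart and 1.24 (1.17 to 1.31) in liver, with 95% counting intervals in brackets. Gpihbp1 in iSuRe-HadCre pups was at 0.812 (0.772 to 0.855) in heart and 1.31 (1.12 to 1.53) in liver. Aqp1 in iSuRe-Cre pups was at 0.556 (0.487 to 0.635) in heart and 1.43 (1.22 to 1.69) in liver. The liver values rest on the group labelled control liver, in which Stab2 was at 30.4 CPM.

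Fabp5 was at 3628 CPM (3348 to 3925) in the 8 barcodes rich in hepatocyte transcripts and without Cdh5, which no comparison used, above control heart (1913 CPM) and control liver (752 CPM). Only 5 of the 8 held a UMI of Fabp5, with a median of 2697 and a 90th percentile of 7036 CPM over the 8. The interval covers counting error only and not this spread.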

How the results depend on the processing

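Heart and liver sums were paired by genotype in the fit, and the hashtag groups carry no replicate numbers for any other block. Over 20 alternatives, 2 of them chosen after seeing the data (sinusoidal liver cells only, and without cells of the 3 vascular marker ranges), no fitted log2 difference of the 10 genes changed direction, and of 200 values 163 stayed on their side of the threshold, 32 lost and 5 gained the call. Lpl and Tcf15 were called in all 20, Meox2 in 19, Fabp4 and Cd36 in 18, Cav1 and Aqp1 in 16, Pparg in 12, Gpihbp1 in 9 and Fabp5 in 5. Calls over all genes (256 heart, 326 liver) became 547 and 518 with no Cdh5 limit, 46 and 92 without the vascular ranges (4 members in heart), 481 in heart with sinusoidal liver cells only, 115 in heart with no genotype block, 493 in liver with fewer than 6000 genes and 153 in liver with HTODemux. The share of calls in heart moved from 44.0% to 57.7% with HTODemux and to 33.3% both with no genotype block and without the vascular ranges. Leaving out a genotype gave 37 to 235 heart and 71 to 398 liver genes, with 5 to 7 members in heart and 0 to 1 in liver, each lowest without the iSuRe-HadCre groups. Aqp1 was not called (0 members in liver) with a hashtag minimum of 10, HTODemux or no Cdh5 limit, and its groups overlapped (0 apart) without the vascular ranges. The median log2 ratio, as a mean over genotypes of 1.61, was 2.10 with no Cdh5 limit, 2.21 with sinusoidal liver cells only and 1.09 without the vascular ranges. The Fabp5 log2 ratio in iSuRe-HadCre pups reversed with a hashtag minimum of 10 (-0.21), no Cdh5 limit (-0.23) and without the vascular ranges (-0.0633). The causes were not tested. Of the ratios within a genotype, 241 stayed within their interval, 172 moved out of it and 3 reversed, and 4 had 0 liver UMIs and gave no value. Depth limits Lpl and Pparg in control and iSuRe-HadCre liver (12 to 23 UMIs).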

Other observations

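A further 5585 ECs carried no hashtag over its minimum and belong to no group, at a median of 4220.0 UMIs per cell. Their levels were 4610.3 CPM for Fabp4, 1299.7 CPM for Fabp5, 553 CPM for Cd36, 563 CPM for Gpihbp1, 59.1 CPM for Lpl, 116 CPM for Meox2, 105 CPM for Tcf15, 27.8 CPM for Pparg, 599 CPM for Cav1 and 134 CPM for Aqp1. Stab2 was at 71.0 CPM in them.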
